A study of Mus musculus with 12 samples.

Results

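The mitochondrial calcium uniporter is the channel that carries calcium into the mitochondrial matrix, and 6 of its genes were followed here out of 22667 gene IDs in the deposited tables: Mcu, Mcub, Smdt1, Micu2, Micu3 and Mcur1. They are a list of known complex genes, chosen by the level of Micu2, which was higher in Srrm4 knockout (KO) libraries than in controls. The contrast of KO with control was thus used in the choice, and its values for these 6 genes are given as a description with no test. The contrast of hippocampus with cortex and the difference of the KO effect between tissues were not used in the choice and were tested.

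The study sequenced messenger RNA of mouse cortex and hippocampus at stage E18.5, shortly before birth, to compare mice lacking Srrm4 (nSR100), a neuron-enriched splicing factor, with controls. The KO allele came from EUCOMM stem cell clones (conditional allele nSR100lox), aggregated with outbred ICR morulae. Mice bearing it were kept on C57Bl/6N and crossed to mice with Cre recombinase under the CMV promoter (B6.C-Tg(CMV-cre)1Cgn/J), which removed exons 7 and 8. Cre expression from the CMV promoter is not restricted to neurons, so the deletion is not specific to brain or to a cell type. The groups were hippocampus KO, hippocampus control, cortex KO and cortex control, with 2 libraries each. The control embryos carry the genotype label Wild type, and the labels do not say whether they were littermates of the KO embryos. Whether each library is a separate embryo is not in the labels, so a p-value here covers the spread among libraries, part of which may be technical.

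The channel works as an assembly. Mcu encodes the pore-forming subunit. Mcub encodes a paralogue that enters the pore and lowers its conductance. Smdt1 encodes EMRE, a small membrane protein that the metazoan channel needs in order to conduct and that couples the pore to its calcium-sensing partners. Micu2 encodes an EF-hand protein of the intermembrane space that helps to keep the pore shut at resting calcium. Micu3 is a paralogue with high expression in nervous tissue, where it is described as an enhancer of uptake. Mcur1 encodes an inner-membrane protein described as an assembly regulator of the complex. In neurons, uptake through this channel couples synaptic calcium entry to the activity of matrix dehydrogenases and so to ATP production.

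Library totals ran from 58210499 to 140052443 counts, replicate 1 being the deeper library of each group, and all 6 genes passed the filter on low counts that left 16111 genes for testing. Srrm4 was at 5.68 and 6.16 RPKM (a read count scaled for gene length and library size, made by the authors) in hippocampus KO, against 26.0 and 27.9 RPKM in hippocampus control. In cortex it was at 8.12 and 6.97 RPKM in KO, against 25.2 and 24.2 RPKM in control. Its log2 fold change over both tissues was -1.96 (SE 0.11; edgeR adjusted p = 0.000157). The summed CPM (counts scaled to a common library size) of 8 hippocampus markers was 1673 to 2069 in hippocampus, against 285 to 348 in cortex, with 7 passing as higher and 1, Dock10, as lower in hippocampus. The summed CPM of 7 cortex markers was 831 to 863 in hippocampus, against 1383 to 1438 in cortex, with 5 passing as lower and 2, Fezf2 and Bhlhe22, as higher in hippocampus. Hippocampus KO replicate 1 stood apart from the other libraries in its mitochondrial transcripts, and hippocampus control replicate 2 in choroid plexus markers, given with the markers of other cell types. In hippocampus KO replicate 1, mitochondrially encoded genes took 4.40% of counts, against 3.14% to 3.45% in the 7 other libraries. Y-linked transcripts differed between KO and control in replicate 2, where the summed CPM of 4 Y-linked genes was 0.412 and 0.319 in the KO libraries and 148 and 144 in the control libraries. In replicate 1 it lay between 25.4 and 49.8 CPM in all 4 groups, between the KO and control levels of replicate 2. In replicate 2 the Y-linked level went with genotype, so sex and genotype cannot be told apart there. Whether the replicate 1 libraries hold RNA of several embryos was not tested.

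Between hippocampus and cortex, 3 of the 6 genes passed the test (edgeR quasi-likelihood test, additive model of tissue and genotype, 8 libraries, Benjamini-Hochberg adjusted p under 0.05). Mcub and Mcur1 were higher in hippocampus and Micu3 was lower. The test called 54.1% of all 16111 genes, with 4679 (29.0%) higher and 4033 (25.0%) lower in hippocampus. A count of 3 of 6 is near that background, so it is not a result about the complex as a set. Scaling by library totals turned the split over all genes to 5853 higher and 3063 lower, and limma on log2(RPKM + 1) gave 5694 higher and 3002 lower (5764 and 3040 on log2(RPKM + 0.1)). By size, 95.6% of tested genes had a smaller absolute log2 fold change than Mcub and 88.2% had a smaller one than Mcur1. In RNA from whole tissue, fewer cells of a type and less RNA per cell cannot be told apart, and this holds for each value below.

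**Figure D1:**
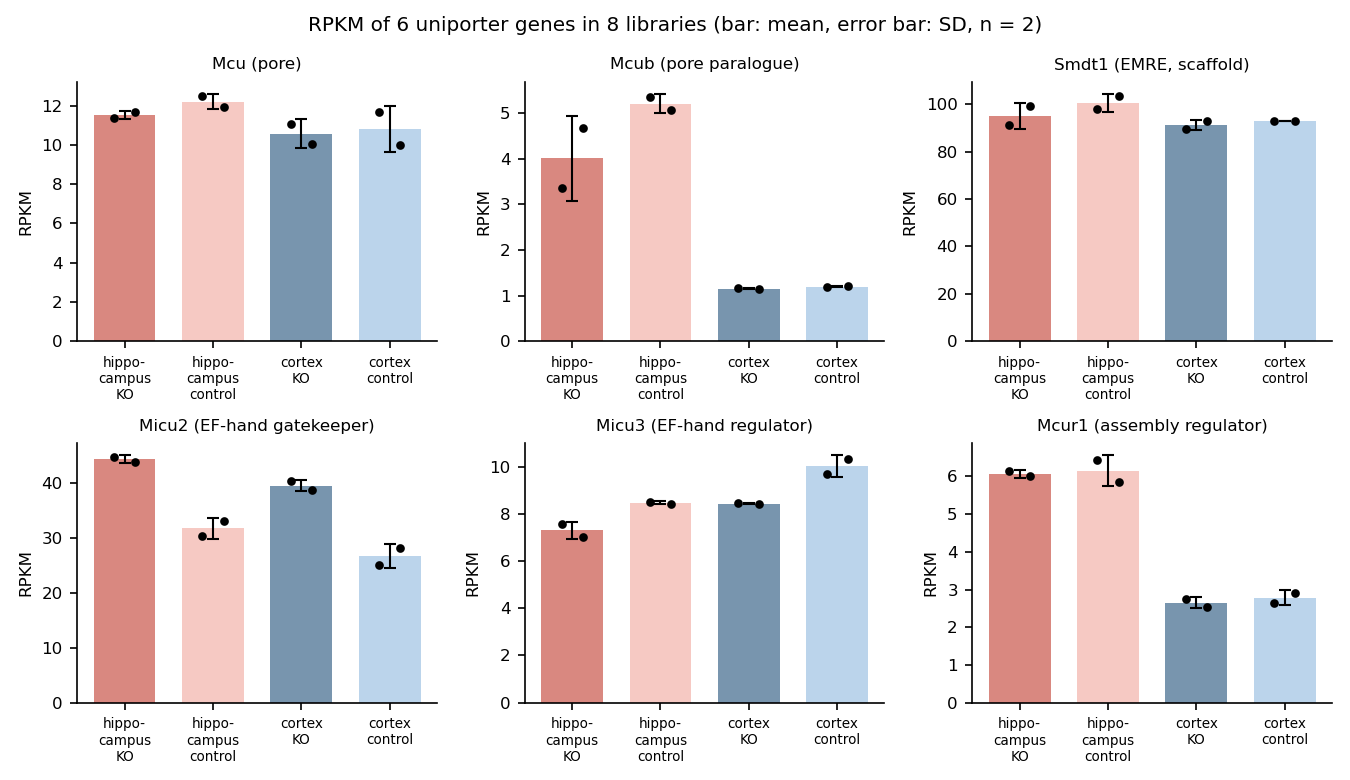
RPKM of the 6 uniporter genes in the 8 libraries. Points are libraries, bars are means of 2 libraries and error bars are SD. Mcub sits at 3.35 to 5.36 RPKM in hippocampus and at 1.14 to 1.20 RPKM in cortex, and each Micu2 point of a KO group lies above both points of its control group.

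Mcu, the pore, was at 11.4 and 11.7 RPKM in hippocampus KO and at 12.5 and 11.9 RPKM in hippocampus control. Cortical levels were 11.1 and 10.1 RPKM in KO and 11.7 and 10 RPKM in control. The pore transcript thus held a narrow range over the 8 libraries, with the tissues overlapping. Its difference between hippocampus and cortex was 0.06 on the log2 scale (SE 0.07) and did not pass (adjusted p = 0.536, edgeR). Its KO effect was described by a log2 fold change of -0.07 (SE 0.07) over both tissues. In cortex that value had no settled sign, being -0.03 with all libraries, 0.10 without cortex control replicate 1 and -0.16 without cortex control replicate 2.

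Mcub, the paralogue that lowers conductance, was at 3.35 and 4.67 RPKM in hippocampus KO and at 5.36 and 5.06 RPKM in hippocampus control. The cortex had 1.16 and 1.14 RPKM in KO and 1.19 and 1.20 RPKM in control. Every hippocampal library lay above every cortical one, and hippocampus KO replicate 1 was the lowest of the hippocampal libraries. The counts behind these values were 522 and 345 in hippocampus KO, 825 and 441 in hippocampus control, 207 and 91 in cortex KO, and 201 and 104 in cortex control, so Mcub was the most thinly counted of the 6. Over genotypes, Mcub averaged 4.61 ± 0.89 RPKM in hippocampus and 1.17 ± 0.03 RPKM in cortex (SD, n = 4 each). The log2 fold change was 1.87 (SE 0.14; edgeR adjusted p = 3.91e-06), or 3.64-fold. It was 1.68 within the KO libraries (adjusted p = 0.000247) and 2.05 within the controls (adjusted p = 0.000101, both edgeR). Without hippocampus KO replicate 1 the overall difference was 2.00.

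Mcur1, the assembly regulator, was at 6.15 and 6.00 RPKM in hippocampus KO and at 6.44 and 5.86 RPKM in hippocampus control. In cortex it was at 2.75 and 2.55 RPKM in KO and at 2.64 and 2.92 RPKM in control. The tissues did not overlap, while KO and control overlapped within each tissue. Mcur1 averaged 6.11 ± 0.25 RPKM in hippocampus and 2.72 ± 0.16 RPKM in cortex (SD, n = 4 each), a log2 fold change of 1.08 (SE 0.07; edgeR adjusted p = 2.71e-06), or 2.12-fold. The difference was 1.09 within KO libraries and 1.08 within controls. Mcub and Mcur1 were the members whose 4 hippocampal libraries all lay above the 4 cortical ones in RPKM. Of 16092 genes, 50.7% did not overlap between the tissues, 32.6% being higher and 18.0% lower in hippocampus.

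The promoters of Mcub and Mcur1, each higher in hippocampus, and of Micu2 are shown as RefSeq gives them on build GRCm38.p6. They run from 250 bases before to 50 bases after the annotated start, 5′ to 3′ on the strand of the gene. Capitals mark matches to 6 short motifs searched on both strands. Mcub lies on chromosome 3 (chr3:129970157-129970456, minus strand), Mcur1 on chromosome 13 (chr13:43560142-43560441, minus strand) and Micu2 on chromosome 14 (chr14:57999213-57999512, minus strand).
Mcub: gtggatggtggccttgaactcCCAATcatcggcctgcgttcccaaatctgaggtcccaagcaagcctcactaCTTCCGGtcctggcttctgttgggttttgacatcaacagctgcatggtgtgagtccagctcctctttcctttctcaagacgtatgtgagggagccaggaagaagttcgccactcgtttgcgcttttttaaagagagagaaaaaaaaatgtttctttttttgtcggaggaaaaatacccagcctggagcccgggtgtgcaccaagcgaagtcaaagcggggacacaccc
Mcur1: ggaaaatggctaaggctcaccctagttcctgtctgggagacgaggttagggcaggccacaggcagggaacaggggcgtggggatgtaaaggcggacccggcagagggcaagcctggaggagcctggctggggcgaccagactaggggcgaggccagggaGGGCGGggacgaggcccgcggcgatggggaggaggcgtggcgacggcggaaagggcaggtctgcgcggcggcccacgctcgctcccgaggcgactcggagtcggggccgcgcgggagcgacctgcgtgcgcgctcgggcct
Micu2: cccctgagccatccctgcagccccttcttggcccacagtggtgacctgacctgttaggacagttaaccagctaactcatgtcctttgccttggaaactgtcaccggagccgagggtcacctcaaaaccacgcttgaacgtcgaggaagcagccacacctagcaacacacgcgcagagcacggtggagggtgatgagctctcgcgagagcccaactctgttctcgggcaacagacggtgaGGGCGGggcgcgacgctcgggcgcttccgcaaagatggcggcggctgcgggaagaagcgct

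The 3 windows differ in base composition. GC content was 51.0% for Mcub, 72.3% for Mcur1 and 62.0% for Micu2, against a median of 52.7% over 32851 RefSeq promoters. The number of CpG dinucleotides was 11 for Mcub, 32 for Mcur1 and 23 for Micu2, against a median of 7. The GC box GGGCGG, present in 35.7% of all promoters, was found once in Mcur1, beginning at position -91 from the start, and once in Micu2, at -11. The Mcub window held neither of those matches. It held a CCAAT box (in 37.4% of all promoters) at -229 and, on the opposite strand, CCGGAAG, a core recognised by ETS factors (8.86%), at -178. The other motifs were the cAMP response element TGACGTCA (1.79%), TATAAA (13.6%) and the NRF1 motif (4.60%), and none of these had a match in the 3 windows. Among the 2 further members with an entry, Mcu held CCAAT in 2 places on the opposite strand and Smdt1 held GGGCGG in 4 places and TGACGTCA once. No motif of the 6 matched in both Mcub and Mcur1, and no match overlapped another.

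Smdt1, which encodes EMRE, had the highest level per length of the 6. It was at 91.3 and 99.1 RPKM in hippocampus KO and at 98.0 and 103 RPKM in hippocampus control. Cortical levels were 89.7 and 92.7 RPKM in KO and 93.0 and 92.8 RPKM in control. The tissues overlapped, and the fitted log2 fold change was -0.00 (SE 0.05; edgeR adjusted p = 0.977). Its exons overlap those of Pheta2 on the same strand in the GENCODE M21 annotation, so its counts may include reads of that gene.

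Micu2, the gatekeeper, was at 44.9 and 43.8 RPKM in hippocampus KO and at 30.4 and 33.2 RPKM in hippocampus control. The cortex had 40.3 and 38.8 RPKM in KO and 25.1 and 28.2 RPKM in control. Each KO library lay above both controls of its tissue, and the lowest KO library of all lay above the highest control library of all. The counts were large, 5510 to 12770 in KO libraries and 4352 to 8338 in control libraries. Group means were 44.3 ± 0.73 RPKM in hippocampus KO, 31.8 ± 1.96 RPKM in hippocampus control, 39.6 ± 1.07 RPKM in cortex KO and 26.7 ± 2.19 RPKM in cortex control (SD, n = 2 each). These are the values that brought the gene to attention. The fitted log2 fold change of KO against control was 0.51 (SE 0.05) over both tissues, a 1.43-fold difference, with 0.45 (SE 0.07) in hippocampus and 0.58 (SE 0.07) in cortex. It stayed between 0.48 and 0.54 over both tissues when any 1 library was left out. Replicate 1 had 44.9 in KO against 30.4 RPKM in control in hippocampus, and 40.3 against 25.1 RPKM in cortex. Replicate 2 had 43.8 in KO against 33.2 RPKM in control in hippocampus, and 38.8 against 28.2 RPKM in cortex. The part of the Y-linked difference in replicate 2 in these values was not tested.

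Between tissues Micu2 differed little. The difference of hippocampus over cortex was 0.12 on the log2 scale (SE 0.05) and did not pass with TMM scaling (adjusted p = 0.078, edgeR). With library totals as the scaling it was 0.21 and passed (adjusted p = 0.00915, edgeR), as it did with limma on log2(RPKM + 1), where it was 0.20 (adjusted p = 0.00942). Without cortex KO replicate 1 it was 0.15 and also passed (adjusted p = 0.0447, edgeR). The call for Micu2 thus changed with the scaling and with 1 library, while its sign was positive under each alternative run.

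Micu3, the paralogue of nervous tissue, was the member that was lower in hippocampus. It was at 7.55 and 7.04 RPKM in hippocampus KO and at 8.51 and 8.42 RPKM in hippocampus control. In cortex it was at 8.45 and 8.42 RPKM in KO and at 9.68 and 10.3 RPKM in control. Cortex control stood above the other 3 groups, hippocampus KO stood below them, and hippocampus control and cortex KO overlapped. The tissue log2 fold change was -0.31 (SE 0.05; edgeR adjusted p = 0.000861), or 0.80-fold, and 54.4% of tested genes had a smaller absolute difference. It was -0.32 within KO libraries (adjusted p = 0.0186) and -0.31 within controls (adjusted p = 0.0215, both edgeR, 4 group means); a fit of the 4 KO libraries alone gave -0.31 and missed the threshold (adjusted p = 0.073). The fitted KO effect was -0.24 (SE 0.05) over both tissues, with -0.25 (SE 0.09) in hippocampus and -0.24 (SE 0.08) in cortex. Micu3 exons overlap those of Fgf20 on the opposite strand, and whether the counting used strand is not stated in the labels or notes, so reads of the 2 genes may be mixed.

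**Figure D2:**
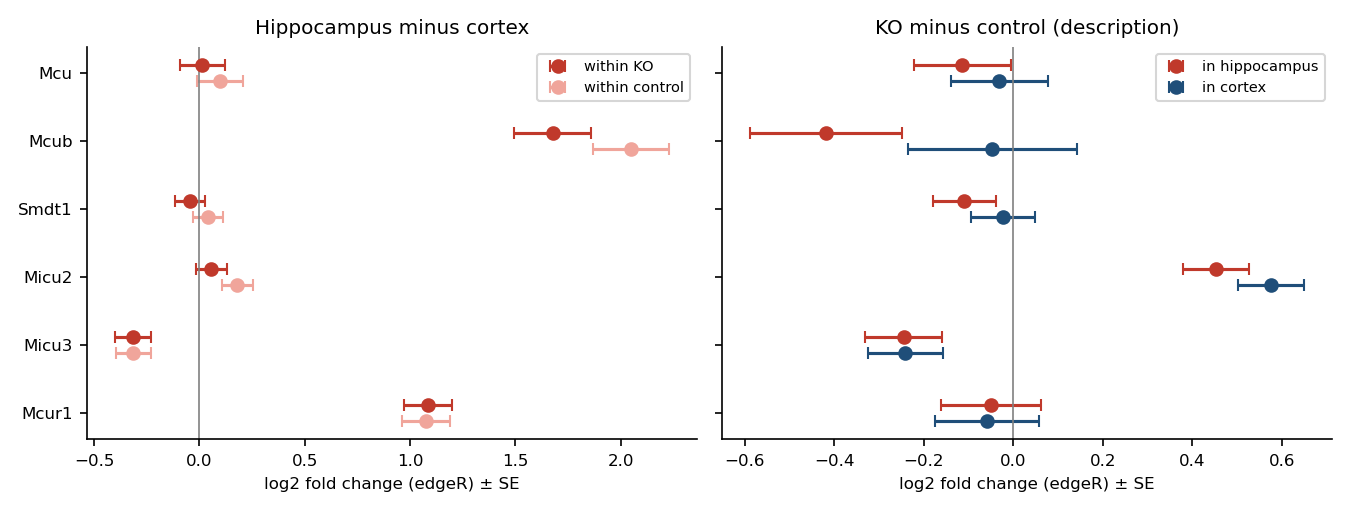
Fitted log2 fold changes of the 6 genes with SE (edgeR, 4 group means, 8 libraries): hippocampus minus cortex on the left, within KO and within control libraries, and KO minus control on the right, in hippocampus and in cortex. Mcub and Mcur1 lie far to the right of 0 in the tissue panel, at 1.68 to 2.05 and 1.08 to 1.09, and Micu2 at 0.45 and 0.58 stands alone on the right of the KO panel.

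Set side by side, the 6 genes did not share a KO effect. One of them, Micu2, had a positive fitted value over both tissues and 5 had negative ones: Mcub -0.26 (SE 0.13), Micu3 -0.24 (SE 0.05), Mcu -0.07 (SE 0.07), Smdt1 -0.07 (SE 0.05) and Mcur1 -0.05 (SE 0.07). Their median was -0.07, beside -0.00 over all tested genes. In RPKM, 3 of the 6 had KO and control libraries that did not overlap in either tissue and lay on the same side in both: Micu2 higher, Mcub and Micu3 lower. Of 16092 genes, 5.69% met that description, 2.73% higher and 2.96% lower. Since the KO contrast chose the set, nothing is read from that share. The test of KO against control over both tissues called 10 of the 16111 genes, or 0.0621%, with 0.0372% higher and 0.0248% lower.

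The negative value of Mcub rests on hippocampus, where it was -0.42 (SE 0.17), with -0.05 (SE 0.19) in cortex. Within hippocampus it depends on the library that stood apart: it was -0.18 (SE 0.14) without hippocampus KO replicate 1 and -0.68 (SE 0.14) without hippocampus KO replicate 2. The Smdt1 value in hippocampus, -0.11 with all libraries, was -0.04 and -0.18 in the same 2 fits. For Mcur1 the hippocampal value of -0.05 turned to 0.05 without hippocampus control replicate 1.

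The difference of the KO effect between the tissues, hippocampus minus cortex, was tested directly and passed for none of the 6 genes. It was -0.37 (SE 0.25, unadjusted p = 0.182) for Mcub and -0.12 (SE 0.10, unadjusted p = 0.269) for Micu2. The 4 others lay between -0.09 and 0.01, and the adjusted p was 1.0 for each of the 6 (edgeR, 4 group means). Over all 16111 genes edgeR called 0, with 158 at an unadjusted p under 0.05, and DESeq2 called 0. The count at an unadjusted p under 0.05 was 1375 without hippocampus KO replicate 2 and 94 to 273 without any other 1 library. For Mcub the difference was -0.13 (SE 0.19) without hippocampus KO replicate 1 and -0.63 (SE 0.19) without hippocampus KO replicate 2, and it did not pass in either fit.

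The order of levels per length was the same in the 4 groups: Smdt1 highest, then Micu2, Mcu, Micu3, Mcur1 and Mcub. Neighbours in that order did not overlap between the 2 libraries of a group, except Mcu and Micu3 in cortex control, at 11.7 and 10 RPKM against 9.68 and 10.3 RPKM. Ratios within a library, chosen after the values had been seen, set the subunits against each other without any scaling between libraries. Transcripts of the paralogue per transcript of the pore, Mcub over Mcu in RPKM, were 0.295 and 0.400 in hippocampus KO and 0.430 and 0.424 in hippocampus control. In cortex the ratio was 0.105 and 0.113 in KO and 0.102 and 0.120 in control. It averaged 0.387 ± 0.063 in hippocampus and 0.110 ± 0.008 in cortex (SD, n = 4 each), with no overlap. The ratio of Mcur1 to Mcu averaged 0.516 ± 0.020 in hippocampus and 0.255 ± 0.027 in cortex. Smdt1 per Mcu lay between 7.85 and 9.28 in all 8 libraries.

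Set against the pore, Micu2 was higher in each KO library than in both controls of its tissue. Micu2 per Mcu was 3.94 and 3.76 in hippocampus KO, against 2.43 and 2.78 in hippocampus control. The cortical ratio was 3.64 and 3.86 in KO, against 2.16 and 2.82 in control. Set against each other, Micu3 per Micu2 was 0.168 and 0.161 in hippocampus KO, against 0.280 and 0.254 in hippocampus control. For cortex this ratio was 0.210 and 0.217 in KO, against 0.385 and 0.366 in control. The 4 KO libraries lay below the 4 control libraries in that ratio, with Micu2 above and Micu3 below in KO within each tissue. Since the KO contrast was used in the choice, these ratios are a description too. They are ratios of transcript level per length, and protein was not measured.

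**Figure D3:**
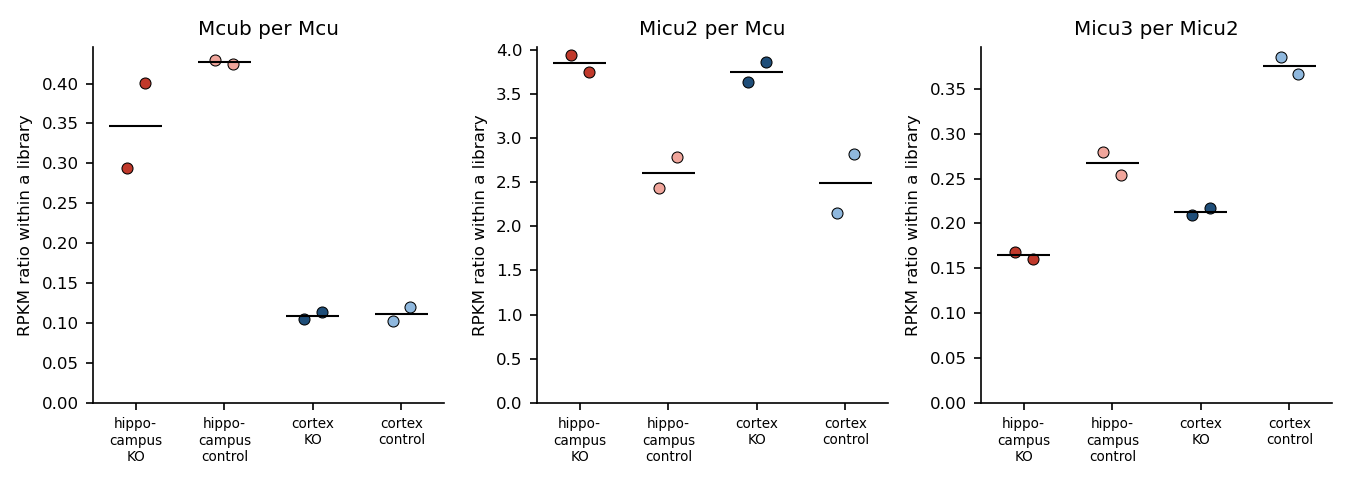
Ratios of RPKM within each library: Mcub over Mcu, Micu2 over Mcu and Micu3 over Micu2, with points for libraries and lines for the mean of 2. Mcub over Mcu separates hippocampus from cortex, and Micu3 over Micu2 lies at 0.161 to 0.217 in KO libraries and at 0.254 to 0.385 in control libraries.

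By pattern over the 8 libraries, the genes most like Micu2 were Proser3, Nanos3, Lrch3, Gla and Bnip2. Likeness was the root mean square difference of log2 CPM, each gene centred on its own mean, over 12656 genes with a mean of at least 1 RPKM. It was 0.09 for Proser3, 0.13 for Nanos3, 0.14 for Lrch3, and 0.15 for both Gla, which encodes alpha-galactosidase A, and Bnip2. Proser3 was at 9.07 and 9.10 RPKM in hippocampus KO, against 5.37 and 6.57 RPKM in hippocampus control. The cortex had 7.47 and 8.12 RPKM in KO, against 5.35 and 5.70 RPKM in control. These genes were picked for the likeness, so their values are a description.

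The genes next to Micu2 on chromosome 14 did not share its KO value. The 3 tested genes on one side gave log2 fold changes of KO against control of -0.08 (SE 0.07) for Ska3, a spindle and kinetochore protein, -0.05 (SE 0.05) for Mrpl57, a mitochondrial ribosomal protein, and 0.08 (SE 0.08) for Zdhhc20, a palmitoyltransferase. On the other side they were -0.19 (SE 0.12) for the growth factor Fgf9 (-0.42 in hippocampus and 0.03 in cortex), 0.04 (SE 0.04) for Rcbtb1 and 0.02 (SE 0.38) for the thinly counted Gm6904. None of the 6 passed (adjusted p = 1.0 each, edgeR). The fitted value of Micu2 between them was 0.51 (SE 0.05). Micu2 was chosen on that contrast and its neighbours were not, so its standing apart from them is a description.

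**Figure D4:**
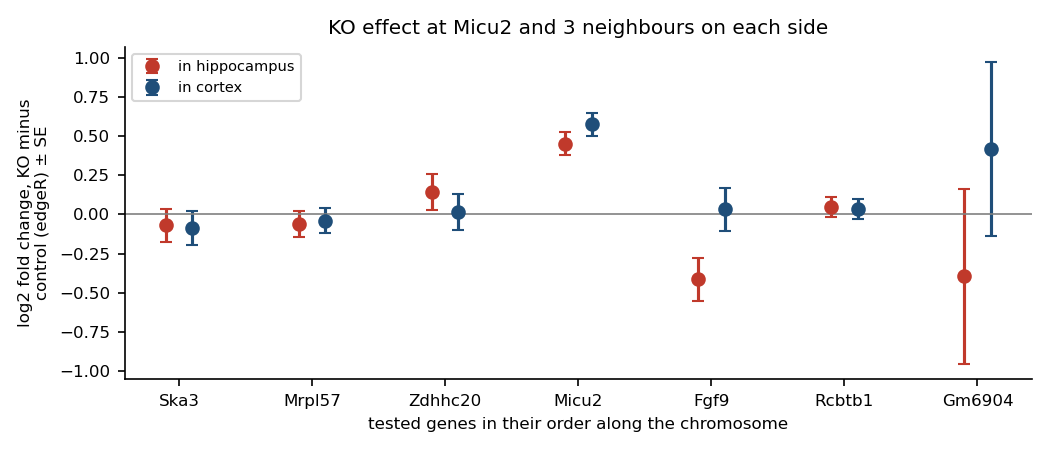
Fitted log2 fold change of KO over control with SE (edgeR) for Micu2 and the 3 nearest tested genes on each side, in their order along chromosome 14, in hippocampus and in cortex. Micu2 stands at 0.45 in hippocampus and 0.58 in cortex. Its nearest neighbours Zdhhc20 and Fgf9 stand at 0.145 and -0.415 in hippocampus and at 0.015 and 0.032 in cortex.

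Around the uniporter, 60 further genes of mitochondrial calcium handling were examined in 4 lists. The first 2 were partners and regulators of the uniporter, and other mitochondrial calcium transport. The others were calcium release from the endoplasmic reticulum with its mitochondrial contacts, and calcium-responsive mitochondrial dehydrogenases. The dehydrogenase list also holds the phosphatases Pdp1 and Pdp2. Between KO and control, 0 of the 60 passed (edgeR) and DESeq2 called 0. An unadjusted p under 0.05 was found for 1 of the 60, beside 713 of all 16111 genes (edgeR). The log2 fold changes of the 60 ran from -0.29 to 0.26 with a median absolute value of 0.06, beside 0.06 over all genes. Among the most highly expressed, the prohibitins Phb2 and Phb were at -0.02 and 0.02 and the calcium-regulated carrier Slc25a23 at -0.08. The outer-membrane channels Vdac1, Vdac3 and Vdac2 were at -0.04, -0.06 and -0.06. The chaperone Hspa9, the pump Atp2a2 and the contact protein Pacs2 were at -0.06, -0.04 and -0.07. The dehydrogenase subunits Pdhb, Idh3g and Idh3b were at -0.06, 0.08 and 0.04.

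Between hippocampus and cortex, 29 of the 60 genes passed, 8 higher and 21 lower in hippocampus (edgeR). Over all genes 29.0% were higher and 25.0% lower, and the split of the 60 was 11 higher and 15 lower with library totals as the scaling, and 10 higher and 15 lower in both limma fits. The share that passed was 48.3%, near the 54.1% of all genes, and the median absolute log2 fold change of 0.16 was below the 0.27 of all genes. The splits per list, here and below, are from TMM scaling alone, and are to be read beside those shares of all genes and that shift with scaling. Among partners and regulators, 3 of 16 rose and 5 fell. Efhd1, an EF-hand protein of mitochondria, was higher by 1.40 (SE 0.10, adjusted p = 3.4e-06, edgeR), at a low mean of 0.83 RPKM over all libraries. The stomatin-like Stoml2 was higher by 0.19 (SE 0.05, adjusted p = 0.00931, edgeR). The inner-membrane protease Oma1 fell by 0.79 (adjusted p = 0.000351), Maip1, which guards newly made EMRE, by 0.27 (adjusted p = 0.00213) and the carrier Slc25a25 by 0.24 (adjusted p = 0.00169).

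In the list of other mitochondrial calcium transport, 1 of 11 rose and 6 fell in hippocampus. Slc25a12, Slc25a13 and Ppif, which are in this list, are not themselves calcium transporters. The riser was Slc8b1, which encodes the sodium-calcium exchanger NCLX that moves calcium out of the matrix. It was at 2.03 and 2.14 RPKM in hippocampus KO and at 1.89 and 1.91 RPKM in hippocampus control, and in cortex at 0.68 and 0.71 RPKM in KO and at 0.75 and 0.60 RPKM in control. Its log2 fold change was 1.45 (SE 0.10; edgeR adjusted p = 2.4e-06). Tmem65, described as a regulator of that exchanger, fell by 0.73 (SE 0.05, adjusted p = 1.43e-06), the aspartate-glutamate carrier Slc25a13 by 0.73 (SE 0.14, adjusted p = 0.00185) and Vdac1 by 0.27 (SE 0.05, adjusted p = 0.00253; all edgeR).

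In calcium release and contacts, 4 of 22 rose and 5 fell. By p, the 3 store-operated channel genes came first among the risers, Orai1 with 0.70 (adjusted p = 6.01e-05), Orai3 with 0.65 (adjusted p = 4.47e-05) and Orai2 with 0.27 (adjusted p = 0.0168, all edgeR). The inositol trisphosphate receptor Itpr1 fell by 1.04 (SE 0.05, adjusted p = 2.3e-07), the ryanodine receptor Ryr2 by 0.56 (adjusted p = 7.58e-06) and the reticular pump Atp2a2 by 0.30 (adjusted p = 0.00271; all edgeR). Of the 11 genes in the dehydrogenase list 0 rose and 5 fell by edgeR. They were led by Idh3a with -0.26 (adjusted p = 0.000754), the phosphatase Pdp1 with -0.28 (adjusted p = 0.000822) and Pdha1 with -0.24 (adjusted p = 0.00361, all edgeR).

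**Figure D5:**
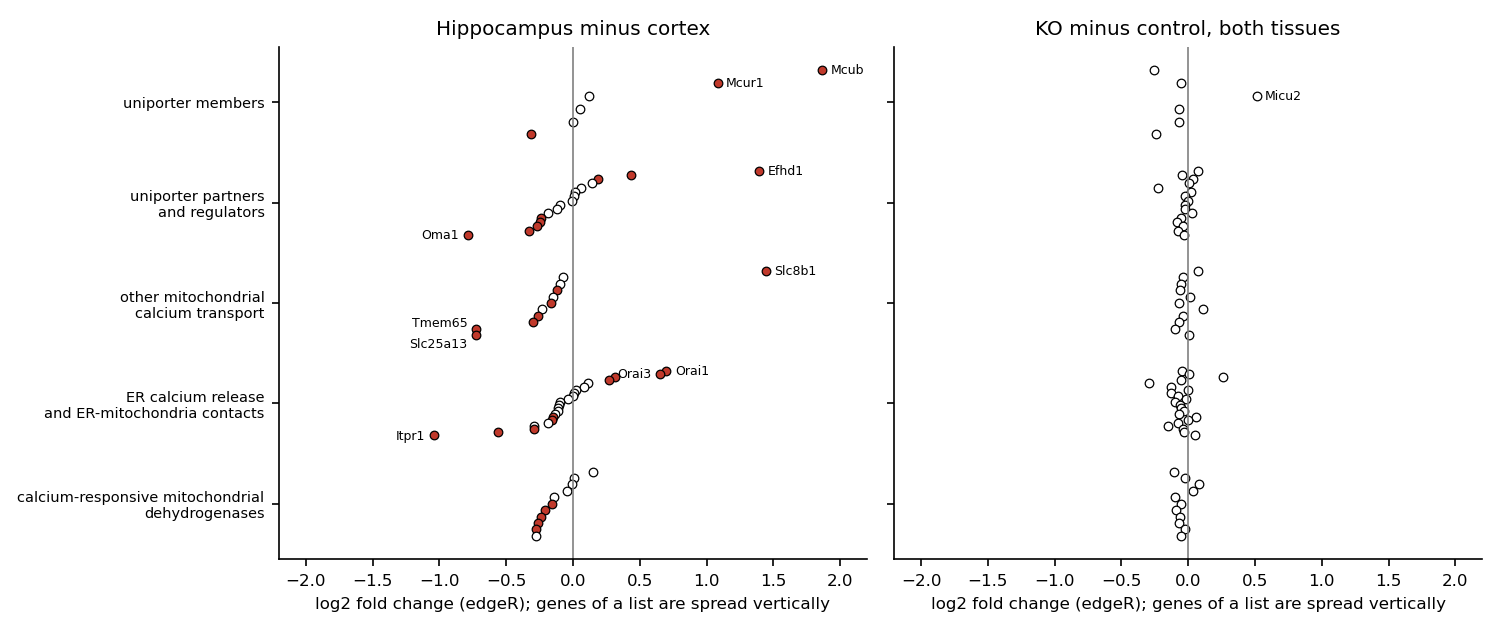
Fitted log2 fold changes (edgeR, additive model, 8 libraries) of the 6 uniporter genes and the 60 genes of the 4 lists, hippocampus minus cortex on the left and KO minus control on the right. Filled points had an adjusted p under 0.05. The 6 uniporter genes are open on the right because that contrast chose them and was not tested. Micu2 is at 0.51 and the 60 listed genes span -0.29 to 0.26. Since Micu2 was chosen on that contrast, its place beyond them is a description.

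Markers of other cell types moved with the tissue contrast. The summed CPM of 12 microglial markers was 137 to 175 in hippocampus, against 82.6 to 99.0 in cortex, and 12 of 12 passed as higher (edgeR). That of 8 radial glia and progenitor markers was 1567 to 1984 in hippocampus, against 1141 to 1245 in cortex, with 6 of 8 passing as higher. That of 8 endothelial and pericyte markers was 293 to 321 in hippocampus, against 228 to 241 in cortex (6 of 8 higher), and that of 6 choroid plexus markers was 25.9 to 199 in hippocampus, against 3.74 to 10.8 in cortex (4 of 6 higher). The 199 CPM belongs to hippocampus control replicate 2, and the other 3 hippocampal libraries lay at 25.9 to 45.5 CPM. Without that library the tissue log2 fold change was 1.86 for Mcub, 1.12 for Mcur1 and -0.30 for Micu3. The 8 astrocyte and oligodendrocyte lineage markers summed to 671 to 774 CPM in hippocampus, against 362 to 418 CPM in cortex, although 2 passed as higher and 6 as lower. The 6 pan-neuronal markers ran the other way, at 6214 to 6762 CPM in hippocampus, against 7567 to 8124 CPM in cortex, and 6 of 6 passed as lower. Their part in the differences of Mcub, Mcur1 and Micu3 was not tested.

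Over all 16111 genes, 713 had an unadjusted p under 0.05 between KO and control (edgeR), and DESeq2 called 37. With the KO contrast, 12 of 12 microglial markers had positive fitted values and 0 passed by edgeR, with 5 at an unadjusted p under 0.05 and 1 called by DESeq2. Their summed CPM was 153 and 175 in hippocampus KO, against 137 and 152 in hippocampus control, and 94.2 and 99.0 in cortex KO, against 82.6 and 91.9 in cortex control. Erythroid markers summed to 61.9 to 102 CPM in KO libraries, against 45.4 to 59.1 CPM in controls; 7 of the 8 tested had positive fitted values and 0 passed by edgeR, with 5 at an unadjusted p under 0.05 and 1 called by DESeq2. The 6 pan-neuronal markers had 0 of 6 positive fitted values in KO (median log2 fold change -0.07), and 0 passed by edgeR, 0 at an unadjusted p under 0.05 and 0 by DESeq2. Their summed CPM was 6214 and 6250 in hippocampus KO, against 6762 and 6504 in hippocampus control, and 8059 and 7567 in cortex KO, against 8124 and 7704 in cortex control, so they overlapped in cortex. Of the 8 astrocyte and oligodendrocyte lineage markers, 1 had a positive fitted value (median -0.09) and 0 passed by edgeR, 0 at an unadjusted p under 0.05 and 0 by DESeq2. The part of these markers in the Micu2, Mcub and Micu3 values was not tested. A list of 15 nuclear genes of mitochondrial mass had a median log2 fold change of -0.04 in KO, 4 of 15 positive and 0 passing by edgeR, with 1 at an unadjusted p under 0.05 and 0 by DESeq2. The 12 tested mitochondrially encoded genes ran the other way, 12 of 12 positive with a median of 0.08 and 0 passing by edgeR, with 1 at an unadjusted p under 0.05 and 0 by DESeq2, and their highest share of counts was in hippocampus KO replicate 1. The part of either list in the members' values was not tested.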

How the data were processed

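Messenger RNA of hippocampus and cortex was sequenced from TruSeq libraries of Tri Reagent RNA, per the labels' protocols. Bowtie and build mm9 are named in the submitters' processing notes; how reads were counted, with which annotation and strand, is not stated there. The deposited tables hold, per Ensembl gene, the authors' RPKM value and the authors' read count, used as deposited. The 1114 RPKM cells per table that read "ne" were taken as missing. The 12 samples reach 8 tables, since runs 1 and 2 of replicate 1 share one, and each table was 1 library.

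Counts were fitted with edgeR 4.0.16 (R 4.3.3; TMM, glmQLFit, glmQLFTest) on the 16111 genes passing filterByExpr (minimum count 10, minimum total 15), adjusted over all of them. Tissue and KO effects came from an additive model, within-group effects and the interaction from 4 group means. The SE is the log2 fold change divided by the root of F. The fit was also run on simulated counts in which few genes changed, unlike the tissue contrast, and no result here rests on that run. Alternatives were DESeq2 1.42.0, limma 3.58.1 on log2(RPKM + 1) and log2(RPKM + 0.1), other scalings, no filter, single libraries left out, 1 genotype at a time, and a replicate block. RPKM rather than counts was used to compare levels between genes. A floor of 3 counts equals 0.0214 to 0.0515 CPM; it covers counting error only.

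The members, lists and tests were chosen with earlier results of these data known. Named genes are the members, Srrm4, up to 3 genes per list and direction that passed (by p) or else the 3 with the highest RPKM, the 5 most like Micu2 and its 3 tested neighbours on each side. Symbols for 20759 IDs, gene order and overlaps come from GENCODE M21, promoters from RefSeq (GRCm38.p6), which had entries for 5 of the 6 members. Some genes of the lists count in the list totals and are not reported by name here.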

Additional observations from a re-analysis of the deposited data

How the results depend on the processing

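No member called in the tissue test reversed under the alternatives run; Mcu (-0.01 to 0.15) and Smdt1 (-0.04 to 0.09), not called, crossed 0. Mcub and Mcur1 passed between hippocampus and cortex under all 17, with log2 fold changes of 1.35 to 2.05 and 0.94 to 1.17. Micu3 (-0.34 to -0.20) passed in all but the 4 KO libraries alone. Micu2 passed in 4 of 17, with library totals, in both limma fits, and without cortex KO replicate 1 (0.15, adjusted p = 0.0447, edgeR). The members that passed numbered 3, and 3 to 4 without any 1 library. Genes called between tissues numbered 8712, with 4983 in the 4 KO libraries alone and 7399 to 8543 without any 1 library. Of the 60 calcium genes 29 passed, with 12 in the 4 KO libraries alone and 15 in the 4 control libraries alone, where fewer samples enter the fit, and 24 to 28 without any 1 library. Genes called between KO and control numbered 10, with 37 by DESeq2, 22 with the replicate block and 7 to 10 without any 1 library; the cause was not tested. Deviations of same-numbered libraries across 10103 genes correlated above 0.1 in 5 of 6 pairs of groups. The values were 0.51 between the tissues of KO and 0.78 between those of control. Between groups of different genotype they were 0.55, 0.53, 0.12 and, for hippocampus KO with cortex control, -0.02. The Y-linked sums of replicate 2 were alike across tissues within KO and within control. This hints at a shared replicate structure, but groups of different genotype, which cannot share an animal, also reached 0.55. The labels name no shared animal, so the numbers were not taken as pairs. With the replicate block 10007 genes were called between tissues, and the members' calls were kept. Mcub had 91 to 825 counts, and counting error was not separated from the spread between libraries.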
